A study of Homo sapiens with 9 samples.

Results

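The 6 genes followed here were TXNIP, the 4 further alpha-arrestin genes ARRDC1, ARRDC2, ARRDC3 and ARRDC4, and MLXIP, which encodes the glucose-sensing transcription factor MondoA. They are 6 of the 18132 genes that the array names and are read by 17 of its 49395 probe sets. The list was drawn up from gene function, but it was chosen by readout: the measured fall of TXNIP after biomineralized insulin was known when the genes were picked. The values of the 6 genes in both comparisons that involve biomineralized insulin are therefore given as a description, with no test. Insulin against medium shares its medium arrays with 1 of those comparisons, so the p-values given for it are no independent support.

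The data were 9 samples labelled as a human hepatoma line, in 3 groups with 3 arrays each. All of them spent a night in serum-free DMEM and then 4 h in fresh DMEM alone (medium), in insulin, or in biomineralized insulin (abbreviated BI in the labels), with total insulin at 40 µg/ml in both preparations. R-HepG2, an insulin-resistant HepG2, is the name that the protocols use for every sample, but the tags of the insulin and biomineralized insulin samples name plain HepG2. There was no group given the mineral without insulin, so an effect of the mineral itself cannot be told apart from that of insulin delivered in it. No label says whether the 3 samples of a group were grown separately, so a p-value measures the spread between these samples only, which may be technical.

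Alpha-arrestins are adaptor proteins that carry the arrestin fold and, in most members, PPxY motifs that recruit NEDD4-family ubiquitin ligases to proteins at the cell surface. TXNIP, the thioredoxin-interacting protein, binds reduced thioredoxin and restrains glucose uptake by promoting endocytosis of glucose transporters. When glucose metabolites accumulate, MondoA pairs with MLX, enters the nucleus and switches on TXNIP and its close paralogue ARRDC4 through E-box-like elements in their promoters. TXNIP RNA is known to respond strongly to glucose, also in liver cells, and insulin is known to lower it in muscle and fat.

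Because TXNIP and ARRDC4 are the members that fell, the 250 bases upstream of their starts are shown for the E-box-like letters that MondoA partners are known to bind. Both are RefSeq sequences on GRCh38.p14, written 5′ to 3′ on the strand of the gene, from chr1:145996580-145996829 (minus strand) for TXNIP and from chr15:97960453-97960702 (plus strand) for ARRDC4. Capitals mark a paired E-box-like core (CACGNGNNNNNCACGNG), an E-box (CACGTG), a forkhead motif (GTAAACA) or a CCAAT box on either strand.
TXNIP: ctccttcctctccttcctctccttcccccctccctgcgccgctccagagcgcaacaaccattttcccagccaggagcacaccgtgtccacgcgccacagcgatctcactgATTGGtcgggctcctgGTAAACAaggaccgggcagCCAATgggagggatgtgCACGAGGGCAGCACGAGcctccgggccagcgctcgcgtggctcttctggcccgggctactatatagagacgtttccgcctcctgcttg
ARRDC4: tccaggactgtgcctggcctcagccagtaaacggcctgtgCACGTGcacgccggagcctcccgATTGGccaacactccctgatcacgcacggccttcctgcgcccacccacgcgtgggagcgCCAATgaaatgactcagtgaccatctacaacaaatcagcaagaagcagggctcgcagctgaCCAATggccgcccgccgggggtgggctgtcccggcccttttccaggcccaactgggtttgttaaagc
In TXNIP the paired cores CACGAGGGCAGCACGAG lay 88 to 72 bases upstream of the start. That pattern was written down after the TXNIP sequence had been seen, and it occurs in 16 of the 27305 windows of this length, or 0.0586%. TXNIP also had GTAAACA at 124 to 118 bases upstream (in 3.01% of windows), and CCAAT boxes beginning 140 and 105 bases upstream. ARRDC4 had the E-box CACGTG at 210 to 205 bases upstream, which 6.46% of windows hold, and 3 CCAAT boxes. All 6 genes had an entry in the RefSeq table. The single core CACGNG, which overlaps the E-box and the paired cores, occurred in TXNIP, ARRDC2 and ARRDC4 (26.6% of windows), the CCAAT box in 5 of the 6 genes (33% of windows), and the carbohydrate response element letters CANGNGNNNNNCNCNTG in 0 of 6 (0.465% of windows). A match is a description of letters and not a measured binding site.

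**Figure D1:**
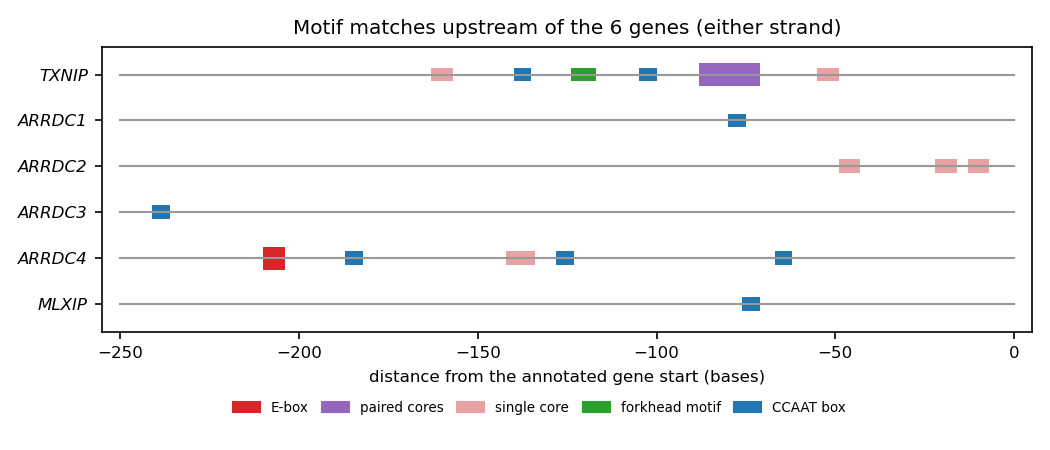
Motif matches on either strand in the 250 bases upstream of each of the 6 genes, drawn against distance from the annotated start in bases. TXNIP holds the paired cores (purple) and ARRDC4 the E-box (red), while ARRDC1, ARRDC3 and MLXIP hold a CCAAT box (blue) as their sole match.

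The values are log2 expression per probe set as deposited, and each gene is read from its brightest probe set unless stated. Array medians lay between 5.46 and 5.50. Genes below 4.74, the level under which the dimmest 40% of probe sets fall, were not tested, which left 12239 genes. All 6 members passed that filter on their mean over the 9 arrays. The liver label went against the markers: of 13 hepatocyte and hepatoma markers on the array, 8 were below the filter, among them ALB (3.29 in medium), AFP (3.00) and APOB (2.88), and the highest of the other 5 averaged 5.87. The cells are therefore called by their label, R-HepG2. The mean of that marker list ran from 4.14 to 4.23 on the medium arrays, 4.15 to 4.22 on the insulin arrays and 4.15 to 4.24 on the biomineralized insulin arrays. A list of 7 lung epithelium markers, 4 of them above the filter, ran from 4.71 to 4.84, 4.79 to 4.83 and 4.91 to 4.98, and its part in the results was not tested. SFTPA1, SFTPD and SCGB1A1 were the lung markers below the filter. Squamous epithelium markers, 3 of 4 above the filter, ran from 4.78 to 4.88, 4.89 to 4.97 and 4.97 to 5.05, and their part was not tested either. The ranges of the fibroblast (5 of 6 above the filter), endothelial (4 of 4) and immune lists (2 of 5) overlapped between all groups. The poly-A control transcripts, bacterial RNAs made to be added before labelling (12 probe sets), read 7.36 in medium, 7.39 in insulin and 7.80 in biomineralized insulin, a rise of 0.44 over medium (two-sided exact permutation p = 0.1, the smallest 3 against 3 can give; 0.225 adjusted over 9 control tests).

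TXNIP was the member that moved most. On the medium arrays it read 11.98, 11.97 and 11.98, on the insulin arrays 11.84, 11.88 and 11.83, and on the biomineralized insulin arrays 10.16, 10.23 and 10.24. All 3 biomineralized insulin arrays lay below all 6 others, and all 3 insulin arrays lay below all 3 medium arrays. After biomineralized insulin TXNIP differed from medium by -1.77 ± 0.03 (log2 difference ± SE, n = 3 against 3), a 3.40-fold lower level that left 29.4% of the medium level and was the 36th largest fall of the 12239 genes. Against insulin the difference was -1.64 ± 0.03 (3.12-fold lower, the 34th largest fall). These values cannot tell fewer TXNIP-rich cells from less TXNIP RNA per cell.

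With insulin alone, TXNIP fell by 0.13 ± 0.03 on the log2 scale, to 91.6% of its medium level (limma, adjusted p = 0.0417, 95% interval -0.192 to -0.0607, n = 3 against 3). TXNIP was picked with its fall after biomineralized insulin known, and the medium arrays are shared, so this p is no independent support. The call was fragile: it was lost under 18 of 23 other settings, over which the adjusted p ran from 0.0209 to 1. It was lost without medium 1 (adjusted p = 0.0936), medium 2 (0.134), medium 3 (0.0829), insulin 1 (0.128), insulin 3 (0.21), biomineralized insulin 2 (0.0517) or biomineralized insulin 3 (0.0536), and was kept without insulin 2 (0.0301) or biomineralized insulin 1 (0.041). The direction was the same in all 23. All 5 TXNIP probe sets had a lower mean in insulin than in medium, with differences from -0.12 to -0.38. In a limma fit over all probe sets their adjusted p lay between 0.0788 and 0.335. They read 1 gene on the same arrays and so are not separate evidence. The 3′ to 5′ difference of actin, a sign of RNA integrity, was 3.02 in medium, 3.19 in insulin and 3.07 in biomineralized insulin, and its part in this result was not tested.

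ARRDC4, the closest relative of TXNIP in this family, does not share its thioredoxin binding but also acts on glucose transporters. It read 6.51, 6.49 and 6.65 in medium, 6.57, 6.42 and 6.49 in insulin, and 5.65, 5.78 and 5.55 in biomineralized insulin. The biomineralized insulin arrays lay below all 6 others, and the medium and insulin arrays overlapped. The difference was -0.89 ± 0.08 against medium (1.86-fold lower, 53.9% of the medium level, the 198th largest fall) and -0.83 ± 0.08 against insulin (1.78-fold lower, the 176th). Insulin against medium gave -0.06 ± 0.08 (adjusted p = 0.791, 95% interval -0.221 to 0.105).

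ARRDC3 is known to direct beta-adrenergic receptors and integrin beta-4 to endosomes and to influence energy expenditure in mice. It read 7.62, 7.50 and 7.41 in medium, 7.50, 7.44 and 7.50 in insulin, and 7.52, 7.55 and 7.81 in biomineralized insulin. Its differences were 0.12 ± 0.07 (biomineralized insulin against medium), 0.15 ± 0.07 (against insulin) and -0.03 ± 0.07 (insulin against medium, adjusted p = 0.907, 95% interval -0.184 to 0.129). A second bright ARRDC3 probe set gave larger values, 7.16, 6.94 and 6.88 in medium, 7.09, 6.89 and 7.20 in insulin, and 7.26, 7.50 and 7.52 in biomineralized insulin, a difference of 0.43 ± 0.09 against medium. The size of the ARRDC3 difference against medium so depended on the probe set. In insulin against medium the direction did too, at -0.03 for the brightest probe set and 0.07 for this one.

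ARRDC1, which recruits the vesicle-budding machinery at the plasma membrane, read 7.05, 7.12 and 7.29 in medium, 7.08, 7.17 and 7.03 in insulin, and 7.20, 7.10 and 7.12 in biomineralized insulin. All 3 groups overlapped. Its differences were -0.01 ± 0.07 for biomineralized insulin against medium, 0.05 ± 0.07 against insulin and -0.06 ± 0.07 for insulin against medium (adjusted p = 0.755, 95% interval -0.204 to 0.0853).

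ARRDC2, a less studied member, read 7.31, 7.22 and 7.36 in medium, 7.36, 7.36 and 7.41 in insulin, and 7.42, 7.40 and 7.44 in biomineralized insulin. Every biomineralized insulin array lay above every medium array, by a mean of 0.12 ± 0.06, and the insulin arrays overlapped with them. The difference was 0.04 ± 0.06 against insulin. Insulin against medium gave 0.08 ± 0.06 (adjusted p = 0.529, 95% interval -0.0363 to 0.198).

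MLXIP, the regulator, was higher with biomineralized insulin, where TXNIP and ARRDC4 were lower. It read 8.13, 8.11 and 8.17 in medium, 8.08, 8.19 and 8.16 in insulin, and 8.59, 8.59 and 8.60 in biomineralized insulin. The biomineralized insulin arrays lay above all 6 others, by 0.46 ± 0.05 against medium (1.37-fold, the 626th largest rise) and 0.45 ± 0.05 against insulin (1.36-fold, the 414th). Insulin against medium gave 0.01 ± 0.05 (adjusted p = 0.954).

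**Figure D2:**
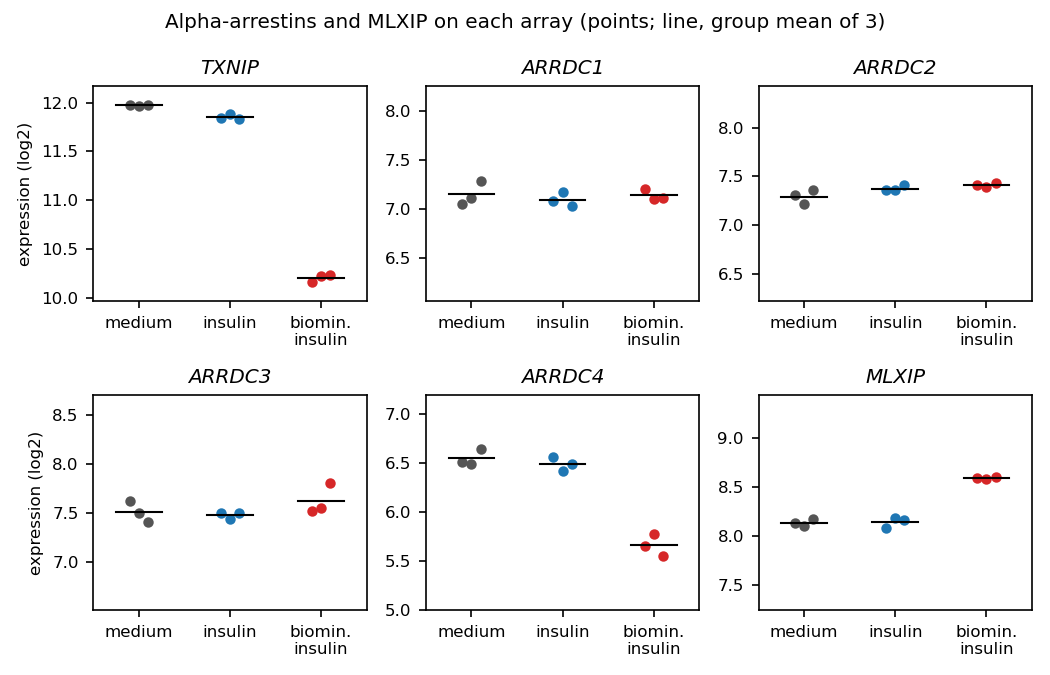
Log2 expression of each of the 6 genes on each of the 9 arrays (points), with the mean of the 3 arrays of a group as a line; every panel spans the same number of log2 units. TXNIP drops from about 11.98 to 10.21 and ARRDC4 from 6.55 to 5.66 in biomineralized insulin, MLXIP rises from 8.13 to 8.59, and the group means of ARRDC1, ARRDC2 and ARRDC3 differ from medium by 0.12 or less at 2 decimals.

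By the threshold used for all genes (limma, adjusted p under 0.05), 1 of the 6 members was called in insulin against medium, where 2.45% of all 12239 genes were. In biomineralized insulin against medium 3 of 6 were below that threshold, where 50.9% of all genes were, and against insulin the same 3 of 6, where 44.4% were. These counts only place the members beside all genes and are no test of a member. Nothing is read from these counts, since the members were picked with results of these data known, and in both biomineralized insulin comparisons the share of members called is near that of all genes. The median log2 difference of the 6 members was -0.04, 0.05 and 0.04, beside 0.01, 0.02 and 0.02 for all genes tested. The insulin and biomineralized insulin comparisons with medium share the medium arrays.

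The 17 probe sets of the 6 genes, of which 15 were above the filter, allow a check of single probe sets. All 5 TXNIP probe sets were lower in biomineralized insulin, with log2 differences from -1.77 to -2.04 against medium (3.40-fold to 4.10-fold lower) and from -1.64 to -1.73 against insulin. For ARRDC4, 2 of 3 were lower than in medium (-0.89 and -1.01), while the dim remaining one, at 3.42 in medium and below the filter, was 0.28 higher. All 4 MLXIP probe sets were higher than in medium, by 0.46 and 0.55 in the brighter pair and by 0.12 and 0.07 in the pair at about 5.2. For ARRDC3, 3 of 3 were higher than in medium.

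**Figure D3:**
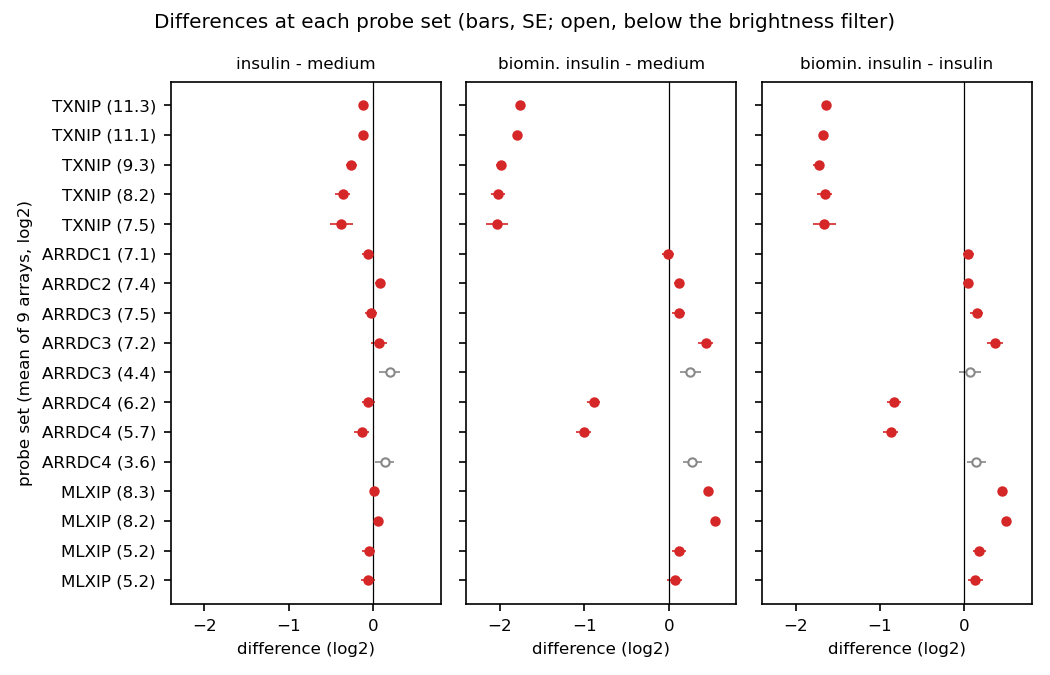
Log2 difference (points, with SE bars) at each of the 17 probe sets of the 6 genes in the 3 comparisons, with the mean of the 9 arrays in brackets and open points for the 2 probe sets below the brightness filter. The 5 TXNIP probe sets lie at -1.77 or lower against medium, and the 3 ARRDC4 probe sets split between -1.01 and 0.28.

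How the arrays were scaled mattered for the direction of the small differences, and not for that of TXNIP and ARRDC4. When each array was centred on its poly-A spike-ins, the median of all genes moved to -0.42 in biomineralized insulin against medium, and the calls went from 3140 higher and 3090 lower to 197 higher and 9347 lower. On that scale TXNIP differed by -2.21 and ARRDC4 by -1.33, MLXIP by 0.02, and ARRDC1, ARRDC2 and ARRDC3 by -0.45, -0.32 and -0.32. Directions here are therefore relative to the median of all genes.

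**Figure D4:**
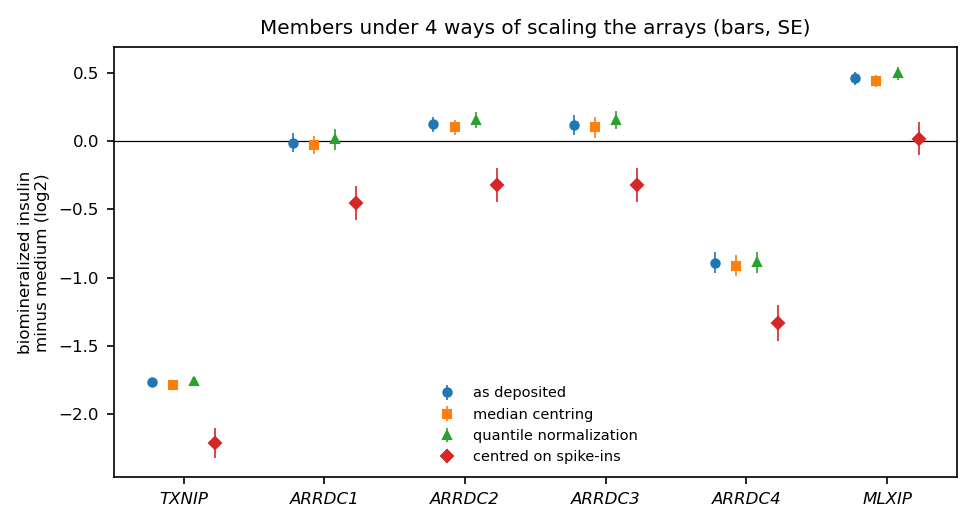
Log2 difference between biomineralized insulin and medium (points, SE bars) of the 6 genes with the arrays as deposited, centred on the median, quantile normalized, or centred on the poly-A spike-ins. TXNIP lies between -1.76 and -2.21 on the 4 scales, while MLXIP falls from 0.46 to 0.02 and ARRDC2 and ARRDC3 turn below 0 with spike-in centring.

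The 5 tested genes whose profile over the 9 arrays was most like that of TXNIP, by the root mean square difference after subtracting each gene's mean, were ERRFI1 (0.0558), CARS1 (0.0703), CLDN7 (0.0768), SLFN5 (0.0918) and SNHG1 (0.0927). ERRFI1 encodes a feedback inhibitor of the EGF receptor, CARS1 a cysteinyl-tRNA synthetase and CLDN7 a tight-junction claudin. Their differences between biomineralized insulin and medium were -1.79, -1.84, -1.72, -1.87 and -1.79, beside -1.77 for TXNIP. That of SLFN5 ran from -2.963 to -1.233 over the 23 other settings. The genes most like ARRDC4 were ZCCHC8 (0.0694), NCOA7 (0.0716), KDM7A (0.0728), MEX3C (0.0736) and RMI1 (0.0805), with differences between -0.85 and -0.91. Both sets were picked for likeness over these same arrays, so near-equal differences follow from the choice. ZCCHC8 is a subunit of a nuclear RNA exosome adaptor and KDM7A a histone demethylase.

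The list of MAX and MLX network factors holds 13 factors known to bind E-boxes, of which USF1 and USF2 form dimers of their own. Of the 13, 7 (USF1 among them) were higher and 1 lower in biomineralized insulin than in medium (limma, adjusted p under 0.05). Against insulin the counts were also 7 and 1. Of all genes tested, 50.9% and 44.4% were called in these comparisons, so nothing is read from the counts of this or the later lists. The lists were chosen with results of these data known, and up to 4 genes of each are named by lowest p. Their p-values are therefore a ranking and no independent support.  MLX, the obligate partner of MondoA, rose by 0.30 ± 0.04 (adjusted p = 1.1e-05), MXI1, a MAX-binding repressor, by 0.48 ± 0.04 (1.5e-08) and MXD4, another repressor, by 0.43 ± 0.05 (4.67e-06). MAX itself rose by 0.26 ± 0.04 (9.54e-05) at its brightest probe set, although 5 of its 12 probe sets pointed the other way, as did 2 of the 5 of MXI1. Both calls rest on the brightest probe set: the mean of a gene's probe sets gave 0.18 for MXI1 (adjusted p = 0.0615) and 0.07 for MAX (0.396), and without cross-hybridizing probe sets they stood at 0.18 (0.324) and 0.19 (0.243). The most variable probe set of MXD4 gave 0.84. The lone factor that fell was MLXIPL, which encodes ChREBP, the liver paralogue of MondoA. Its level went from 6.82 in medium to 6.32, a difference of -0.50 ± 0.09 (limma, adjusted p = 0.000127, all 4 probe sets lower). MLXIPL was named outside the lowest-p rule, after its values were seen. With spike-in centring 7 factors were called lower and the other 6 were not called.

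The carbohydrate-responsive targets, genes known to be induced by MondoA or ChREBP, split. Of 15 tested, 7 rose and 2 fell in biomineralized insulin against medium, and 6 rose and 3 fell against insulin. The shares of all genes called were 50.9% and 44.4%. FASN, the fatty acid synthase, rose by 0.52 ± 0.06 (adjusted p = 1.44e-06) and HK2, hexokinase, by 0.46 ± 0.05 (2.96e-06). KLF10, a Krüppel-like repressor that glucose induces, fell by 0.52 ± 0.05 (2.42e-07), and FGF21, a hormone of fasting and stress, fell from 7.52 to 3.78, a level below the brightness filter (4.32e-10). In insulin against medium, ELOVL6, a fatty acid elongase (0.22 ± 0.05, adjusted p = 0.042), and SCD, a fatty acid desaturase (0.12 ± 0.03, adjusted p = 0.0284), rose. Both were named outside the lowest-p rule, after their values were seen, and both calls were fragile. That of ELOVL6 was lost under 19 of 23 other settings, leaving out any array except insulin 2 among them (adjusted p up to 0.218). That of SCD was lost under 9 of 22, among them without medium 2 (0.114), medium 3 (0.0627) or insulin 3 (0.129). Of the 4 SCD probe sets, 2 pointed the other way. PKLR, G6PC1, GPD1, THRSP and SLC2A2 were below the filter. With spike-in centring FASN and HK2 stood at 0.08 and 0.01 and were not called. On that scale 8 of the 15 targets were called lower than in medium and 0 higher. The mean of its probe sets put HK2 at 0.29, and an offset of 32 put FGF21 at -2.22.

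Of 17 genes of the thioredoxin system, to which TXNIP binds, 4 rose and 5 fell against medium, and 5 rose and 5 fell against insulin. Among all genes 50.9% and 44.4% were called. TXNRD1, the cytosolic thioredoxin reductase, fell by 0.51 ± 0.03 (adjusted p = 7.47e-10) and MSRB2, a mitochondrial methionine sulfoxide reductase, by 0.85 ± 0.05 (9.01e-10). SRXN1, which repairs peroxiredoxins, rose by 0.28 ± 0.04 (1.16e-05). TXN, the thioredoxin that TXNIP binds, rose by 0.17 ± 0.04 (0.00181) and was named outside the lowest-p rule, after its values were seen. MAP3K5, the kinase ASK1 that thioredoxin restrains, was the other gene of the 7 lists called in insulin against medium, at 0.33 ± 0.06 (adjusted p = 0.012). That call was lost without medium 2 (adjusted p = 0.0769), insulin 1 (0.0505) or insulin 3 (0.0801). With biomineralized insulin MAP3K5 was 0.44 ± 0.06 above medium (2.06e-05). Without cross-hybridizing probe sets neither MAP3K5 call was made (0.11, adjusted p = 0.629, with insulin and 0.14, adjusted p = 0.206, with biomineralized insulin), and TXNRD1 stood at -0.76.

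Among the NEDD4-family ligases and adaptors that alpha-arrestins recruit, 2 of 10 tested rose and 2 fell against medium. Against insulin 1 rose and 2 fell. The called shares of all genes, also for the next list, were 50.9% against medium and 44.4% against insulin. ITCH, a ligase known to ubiquitinate TXNIP, fell by 0.81 ± 0.07 (adjusted p = 4.9e-08, all 4 probe sets lower), and WWP1 rose by 0.35 ± 0.05 (2.71e-05). SMURF1 differed from medium by -0.17 ± 0.07 (0.04) and NEDD4L from insulin by -0.13 ± 0.05 (0.0362), and both calls were lost under 12 of 23 other settings. That of SMURF1 was lost without medium 1 (adjusted p = 0.115), medium 3 (0.0791), insulin 1 (0.0504), biomineralized insulin 1 (0.0768) or 2 (0.113). That of NEDD4L was lost without insulin 2 (0.215) or 3 (0.122) or any biomineralized insulin array, and without biomineralized insulin 3 the difference was -0.04 (0.658). Of the 2 SMURF1 probe sets 1 pointed the other way, as did 1 of the 7 of NEDD4L. Of the other arrestin-fold genes 2 of 7 rose and 1 fell against medium, and 2 rose and 2 fell against insulin. ARRB1, beta-arrestin 1, rose from 4.78 to 5.46 (adjusted p = 5.47e-05) at 1 of its 2 probe sets (0.35 on the log2 scale with the offset against 0.68 without), VPS26B, a retromer subunit, rose by 0.33 ± 0.05 (1.84e-05), and RGP1, a membrane-trafficking protein with an arrestin-like fold, fell by 0.21 ± 0.04 (0.000431). The mean of its probe sets put VPS26B at 0.20. VPS26C differed from insulin by -0.13 ± 0.04 (adjusted p = 0.026), a call lost without insulin 3 (0.103), biomineralized insulin 1 (0.0789) or 2 (0.0813). ARRDC5, the remaining alpha-arrestin, differed from medium by 0.01 ± 0.08 (adjusted p = 0.919).

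Of 13 reported cargoes and partners of alpha-arrestins, 2 rose and 2 fell against medium, and 4 rose and 3 fell against insulin. All genes together had 50.9% and 44.4% called. SLC2A1, the glucose transporter GLUT1 that TXNIP and ARRDC4 bring into the cell, rose by 0.21 ± 0.04 (adjusted p = 0.000128). DDIT4 (REDD1), a stress-induced mTORC1 inhibitor that binds TXNIP, fell by 0.45 ± 0.03 (1.9e-09), and COPS5, a signalosome subunit, fell by 0.22 ± 0.03 (2.04e-05). NOTCH1 was higher than in insulin by 0.32 ± 0.09 (0.00916). Of its 3 probe sets, 2 pointed the other way, and the mean of all 3 gave 0.11 (adjusted p = 0.17). The call was also lost without insulin 2 (adjusted p = 0.0559) or biomineralized insulin 1 (0.0545). SLC2A4 and INSR, the insulin-regulated transporter and the insulin receptor, differed from medium by 0.03 (adjusted p = 0.79) and 0.11 (0.113). AMPK is the kinase that marks TXNIP for degradation. Of 10 genes of AMPK and its upstream kinase complex, 1 rose and 2 fell in both comparisons. Against medium PRKAA2, a catalytic subunit, rose by 0.28 ± 0.05 (limma, adjusted p = 0.000189) and PRKAB1, a scaffold subunit, fell by 0.72 ± 0.07 (1.23e-07). CAB39, which supports the upstream kinase and is not an AMPK subunit, fell by 0.18 ± 0.04 (0.00109). Against insulin, the PRKAA2 call (0.15 ± 0.05, adjusted p = 0.0229) was lost without insulin 1 (0.0743), insulin 2 (0.0713) or biomineralized insulin 2 (0.12), and its most variable probe set gave 0.05 (0.566). CAB39 stood at -0.45 against medium with its most variable probe set. The rises of SLC2A1, MLX, MAX, MXD4, SRXN1, MAP3K5, WWP1, VPS26B, PRKAA2 and TXN over medium turned below 0 with spike-in centring. In no list was a gene called higher on that scale with biomineralized insulin. Called lower against medium were 14 of 17 thioredoxin genes, 9 of 10 NEDD4-family genes and 5 of 7 arrestin-fold genes. So were 11 of 13 cargoes and partners and 9 of 10 genes of the AMPK list.

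**Figure D5:**
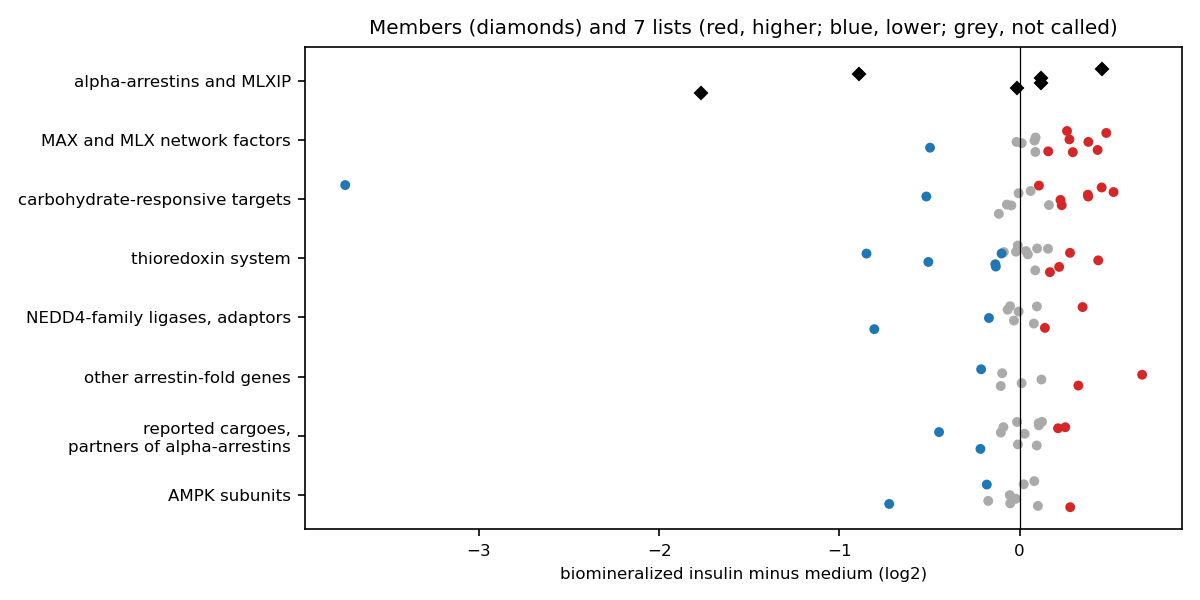
Log2 difference between biomineralized insulin and medium for the 6 genes (diamonds) and for the tested genes of 7 lists (points; red, called higher; blue, called lower; grey, not called by limma at adjusted p under 0.05). FGF21 at -3.74 is the lowest point and TXNIP at -1.77 the lowest diamond; most list genes lie within 1 of 0.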

How the data were processed

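RNA of 9 samples (3 medium, 3 insulin, 3 biomineralized insulin) was hybridised to one-colour Affymetrix 3′ arrays, 1 array per sample, per the labels' protocols. The authors deposited log2 values per probe set; their software and normalization are not given in the sources used here. Array medians lay between 5.46 and 5.50, no 2 arrays were identical, and precision is limited by the 9 arrays. The platform annotation gives 1 symbol for 44988 of the 49395 probe sets, several for 1832 and none for 2473, and 102 were controls. Of the probe sets with 1 symbol, 44961 were matched to RefSeq. The dimmest 40% of probe sets (below 4.74) were left out and the brightest probe set kept for each gene, which gave 12239 genes. limma 3.58.1 (R 4.3.3) was fitted to all 9 arrays with a trended variance (6 residual degrees of freedom), with Benjamini-Hochberg adjustment and a threshold of 0.05. The script was tested on simulated data. Figures used matplotlib 3.10.9.

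The members and lists were chosen with earlier results of these data known. Named were all 6 members, up to 4 genes with the lowest p in each list, and the 5 genes most like TXNIP and ARRDC4. Alternatives covered the block, the arrays fitted, scaling, an offset of 32, the filter, which probe set stood for a gene, array weights, the variance trend, the threshold and leaving out each array. Promoters are RefSeq sequences on GRCh38.p14. Protein sequences were not used here.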

Additional observations from a re-analysis of the deposited data

How the results depend on the processing

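The values of TXNIP and ARRDC4 with biomineralized insulin, given without a test, were below those in medium under every alternative run. Replicate numbers did not pair the arrays (correlations of same-numbered deviations from -0.234 to 0.167), and with the replicate block TXNIP in insulin against medium stayed at -0.1262 but missed the threshold (limma, adjusted p = 0.0607); among the named genes the block changed 3 other calls, NEDD4L against insulin, SMURF1 against medium and ELOVL6 in insulin against medium (0.22, adjusted p = 0.0751). That TXNIP call was also lost at -0.1262 with only the 6 arrays compared, the dimmest 20% left out, no filter, no variance trend or a 0.01 threshold, at -0.1289 with median centring, -0.1549 with spike-in centring, -0.3782 with the most variable probe set or without cross-hybridizing ones, and -0.2501 with the mean of the probe sets; leaving out single arrays gave -0.1416 to -0.115. The 300 genes called in insulin against medium became 152 with the 6 arrays, 197 with median centring, 5 with spike-in centring, 177 with the most variable probe set, 199 without cross-hybridizing ones, 37 without a trend, 605 with array weights and 66 at 0.01. Leaving out single arrays gave 57 to 424, with 189 without medium 1, 62 without medium 2, 145 without insulin 1 and 57 without insulin 3.

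Spike-in centring gave 9544 and 9606 calls in biomineralized insulin against medium and against insulin. In that order it put TXNIP at -2.209 and -2.054, ARRDC4 at -1.333 and -1.246, ARRDC1 at -0.4534 and -0.3652, ARRDC2 at -0.3202 and -0.3725, ARRDC3 at -0.3232 and -0.2669, and MLXIP at 0.0158 and 0.0351. It also turned MLX (-0.146, -0.1172), MAX (-0.178, -0.1326), MXD4 (-0.008352, -0.09569), SRXN1 (-0.1614, -0.1166), WWP1 (-0.09154, -0.03046), VPS26B (-0.1151, -0.11), SLC2A1 (-0.2278, -0.1325), PRKAA2 (-0.1603, -0.2623) and ELOVL6 (-0.0624, -0.2526) in both, MAP3K5 (-0.004778) and TXN (-0.2728) against medium, and MXI1 (-0.06342), FASN (-0.04937), HK2 (-0.03109) and NOTCH1 (-0.08872) against insulin. SCD against insulin was 0.1605 with the most variable probe set.

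The most variable probe set gave TXNIP -2.037, ARRDC4 -1.009 and ARRDC3 0.4338 against medium (the same without cross-hybridizing probe sets), ARRDC3 0.364 against insulin (likewise), and MLXIP 0.548 and 0.4901. The mean of the probe sets gave TXNIP -1.923 and -1.673, ARRDC3 0.276 against medium, and MLXIP 0.2985 and 0.3116. The offset gave ARRDC4 -0.6071 and -0.5639 and MLXIP 0.4166 and 0.4082, and quantile normalization MLXIP 0.4956 against medium. In insulin against medium, differences near 0 changed sign: ARRDC3 at 0.06987 (most variable probe set, or without cross-hybridizing ones) and 0.02109 (mean), and MLXIP at -0.0193 (spike-ins) and -0.01314 (mean). Leaving out single arrays there gave -0.1097 to 0.00832 for ARRDC1, -0.07792 to 0.02868 for ARRDC3 and -0.01213 to 0.03914 for MLXIP. The causes of these shifts were not tested. Of the 1551 other comparisons of named genes with an alternative, 1403 were counted as unchanged. For list genes that meant the same direction and side of the threshold. For the genes most like TXNIP and ARRDC4 it meant the same direction and a shift smaller than the gene's standard deviation within groups.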

Other observations

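ARRDC1-AS1, the antisense neighbour of ARRDC1, was lower with biomineralized insulin, from 7.41 in medium and 7.55 in insulin to 7.23. The difference was -0.19 ± 0.06 against medium (limma, adjusted p = 0.016) and -0.32 ± 0.06 against insulin (0.00034), while ARRDC1 itself gave -0.01 ± 0.07 and 0.05 ± 0.07. The gene was named after its values were seen, and the difference between the partners was not tested.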
